A study of Homo sapiens with 8 samples.

Results

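The 10 genes described here encode the machinery that carries a cell from G1 into S phase: the D-type cyclins CCND1, CCND2 and CCND3, the E-type cyclins CCNE1 and CCNE2, the cyclin-dependent kinases CDK2, CDK4 and CDK6, the retinoblastoma protein RB1 and the transcription factor E2F1. They were taken by gene symbol from the deposited gene counts, which list 60282 genes, and all 10 were among the 14073 genes tested. SK-UT-1 cells, a long-established human line of uterine leiomyosarcoma (uLMS), were treated for 48 h with 5 µM TP-472, a small-molecule inhibitor of the bromodomain protein BRD9, or with DMSO as vehicle, in 4 replicates each. Both groups were kept in Eagle's minimum essential medium with 10% fetal bovine serum and carried no other agent, and a single tumor line was used, which limits the results to that line. Total RNA was sequenced, and the authors deposited estimated counts per gene.

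In G1, D-type cyclins rise in response to growth signals, bind CDK4 or CDK6 and start the phosphorylation of RB1. RB1 then releases E2F factors, which switch on the E-type cyclins and the genes of DNA replication, and cyclin E with CDK2 completes the phosphorylation of RB1. CDK inhibitors of the INK4 and CIP/KIP families restrain these kinases, much of the control acts on protein levels and phosphorylation, which RNA does not show, and the pathway is altered in many sarcomas.

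The vehicle libraries held 32574716 to 36634184 counts each and the TP-472 libraries 36246466 to 38545695. Vehicle replicate 3 stood apart from the other libraries. Its median Spearman correlation with the other vehicle libraries was 0.914 across the genes tested, whereas those of vehicle replicates 1, 2 and 4 with their group lay between 0.988 and 0.989, and those of the TP-472 libraries between 0.993 and 0.997. Its median correlation with the TP-472 libraries was 0.872, below those of the other vehicle libraries (0.954 to 0.969). The deviation of a gene in this library from its mean over all libraries followed its GC content, taken as the mean over its annotated transcripts. Spearman rho was 0.683 across genes, against −0.45 to −0.08 in the other libraries. The share of counts on mitochondrially encoded genes was 0.424% in this library, 0.285% to 0.405% in the other vehicle libraries and 0.199% to 0.282% with TP-472. The labels give no batch, and the fold changes of the members, the counts of called genes in the lists and the list genes called are therefore given with and without vehicle replicate 3. The part of this library in the results was otherwise not tested.

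As for the cell type, the smooth muscle markers ACTA2, CALD1, TAGLN and SMTN were present. ACTA2 lay between 145 and 176 CPM (counts divided by library size, with TMM scaling) in the vehicle libraries and between 104 and 112 CPM with TP-472. MYH11, ACTG2 and MYOCD, which mark differentiated smooth muscle, were at or near 0, with at most 0.263 CPM in any library. The summed level of the 10 smooth muscle markers was 438, 479, 522 and 480 CPM with vehicle (replicates 1 to 4, the order used throughout) and 379, 377, 372 and 370 CPM with TP-472. Of the 7 markers tested, 3 were called lower (as defined below), TAGLN, DES and LMOD1, against 14.9% of all genes tested. DES and LMOD1 were low, with means of 3.24 and 2.52 CPM with vehicle and 0.628 and 0.700 CPM with TP-472. ACTA2 was called too without vehicle replicate 3, and the call of TAGLN was lost with the GC trend removed. The leukocyte markers PTPRC and CD3E and the endothelial markers CDH5 and KDR stayed at or under 0.0844 CPM in every library, and none of the 5 leukocyte and 4 endothelial markers passed the filter (summed levels of at most 2.45 and 0.580 CPM, with ITGAM the most abundant of the former by its mean with TP-472). The summed level of the 6 epithelial markers was 17.5, 18.2, 23.0 and 18.8 CPM with vehicle and 24.3, 26.8, 24.7 and 20.4 CPM with TP-472. KRT18, the most abundant of them with TP-472, was called higher, KRT19 was called lower except with the GC trend removed, and EPCAM and CDH1 stayed under the filter. The part of these shifts in the results below was not tested. In bulk RNA, fewer cells that express a gene and less of its RNA per cell cannot be told apart.

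TP-472-treated cells had higher expression of CCND1 and CCNE1, whereas no member was called lower. A gene was called at an adjusted p-value under 0.05 in edgeR's quasi-likelihood test and a fold change over 1.5. The 2 of 10 members called higher stand beside a background of 12% of all genes tested that were called higher, and the 0 of 10 called lower beside 14.9%. In 3 members, CCND1, CCNE1 and CCNE2, all treated libraries exceeded all vehicle libraries, where 23.8% of all genes tested had groups that did not overlap in this direction. No member had all TP-472 libraries below all vehicle libraries, against 21.6% of all genes. The median log2 fold change was 0.12 over the members and −0.03 over all genes tested. Without vehicle replicate 3 the same 2 members were called (12% of all genes were then called higher and 13.4% lower), the groups did not overlap in 4 members that were higher (29.8% of all genes) and in 1 that was lower (28.7%), and by the adjusted p-value alone 4 members were higher (28.6% of all genes) and 2 lower (28.4%). With all libraries the adjusted p-value alone gave the same 2 members as the call, both higher, where it gave 17.2% of all genes higher and 19.1% lower.

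**Figure D1:**
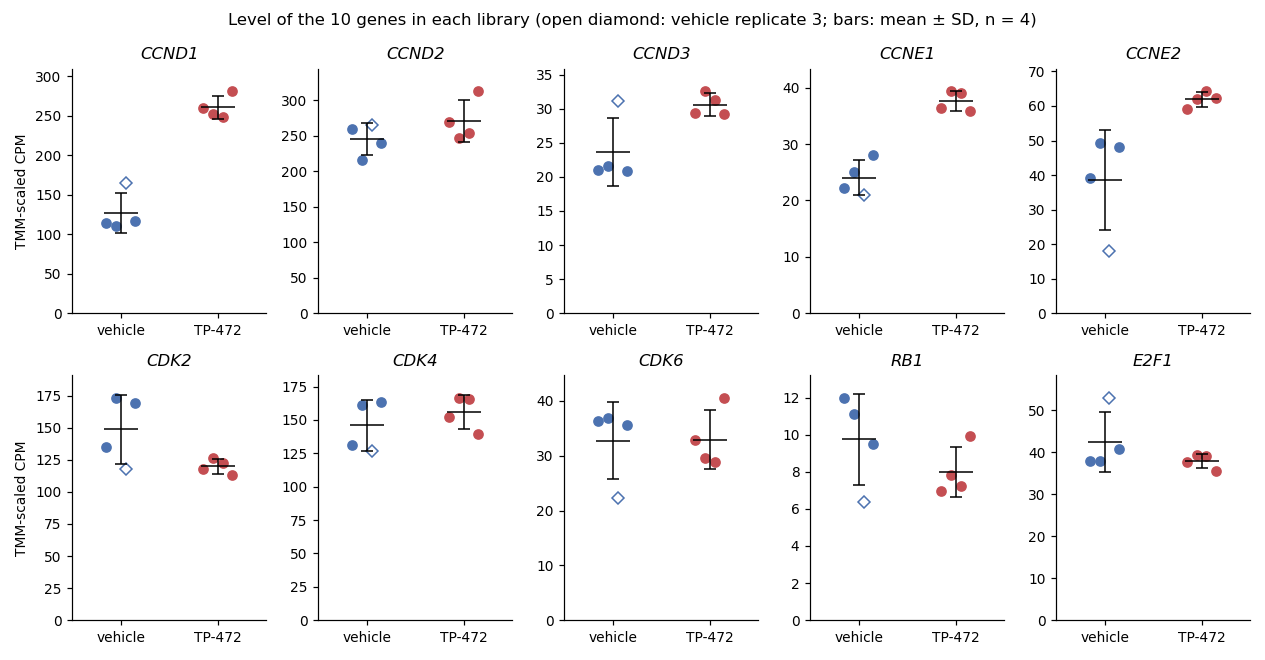
TMM-scaled CPM of each of the 10 genes in every library, with vehicle replicate 3 as an open diamond and the mean ± SD of each group (n = 4) as black bars, each panel on its own axis from 0. CCND1 lies between 111 and 164 CPM in the vehicle libraries and between 248 and 281 CPM with TP-472, and vehicle replicate 3 is the highest or lowest vehicle library in each of the 10 panels.

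CCND1 (ENSG00000110092.4), cyclin D1, lies on the plus strand of chromosome 11 from 69641087 to 69654474. Its level was 114, 111, 164 and 117 CPM in the vehicle libraries and 260, 252, 248 and 281 CPM in the treated libraries. The groups were separated by a wide gap, and the vehicle library nearest to it was replicate 3. Its expression rose 2.06-fold (log2 fold change 1.04 ± 0.143 SE, adjusted p = 0.00106 in edgeR's quasi-likelihood test, n = 4 per group), and 19 of 19 single alternatives called it higher, with adjusted p-values from 8.8e-11 to 0.00866. Without vehicle replicate 3 the vehicle level was 114 ± 3.06 CPM (SD, n = 3) and the change 2.29-fold. By the size of its increase CCND1 ranked 601 of the 14073 genes tested. The study also chose CCND1 as a hub gene of a co-expression module built on these libraries, so its change is not independent of that choice. The gene shares bases with LTO1 on the opposite strand, which was at 13.6 CPM with vehicle and 21.3 CPM with TP-472.

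The expression of CCND2, cyclin D2 (ENSG00000118971.8, chromosome 12, 4273772 to 4305350, plus strand), was 260, 217, 265 and 240 CPM in the vehicle libraries and 270, 247, 253 and 313 CPM in the TP-472 libraries. These groups overlapped, and the difference was within the spread of the replicates (log2 fold change 0.14 ± 0.118 SE, adjusted p = 0.359 in edgeR's test, 0.134 to 0.687 over the alternatives), also without vehicle replicate 3 (0.18, adjusted p = 0.134, edgeR). A gene on the same strand, AC008012.1, shares bases with CCND2 and was at 9.92 CPM with vehicle and 21.9 CPM with TP-472, so that reads shared by both may have been split between them.

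CCND3, cyclin D3 (ENSG00000112576.13, chromosome 6, 41934933 to 42050357, minus strand), was measured at 21.1, 21.5, 31.2 and 20.8 CPM with vehicle and at 29.4, 32.6, 31.2 and 29.2 CPM with TP-472. Vehicle replicate 3 lay within the range of the treated libraries, and the other 3 vehicle libraries lay below all of them. With all 8 libraries the log2 fold change was 0.37 ± 0.151 SE (adjusted p = 0.0815, edgeR). Without vehicle replicate 3 it was 0.53 (adjusted p = 1.46e-04, edgeR), a 1.45-fold difference that did not reach the fold limit. After removal of the GC trend of each library, an alternative added after seeing the data, CCND3 was called higher (log2 fold change 0.68, adjusted p = 1.58e-04 in edgeR). Adjusted p-values over all 19 alternatives ran from 1.46e-04 to 0.183.

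Levels of different genes were compared per kilobase of exon. This length is the union of a gene's annotated exons, not that of the transcripts expressed, and the SDs do not cover that choice. In the vehicle libraries CCND2 was the most abundant D-type cyclin at 34.3 ± 3.08 CPM per kb (SD, n = 4), followed by CCND1 at 26.2 ± 5.22 and CCND3 at 4.08 ± 0.866 CPM per kb. With TP-472 the order of the first pair was turned, with CCND1 at 53.9 ± 3.05 and CCND2 at 37.9 ± 4.17 CPM per kb. This turn was seen per length only, since in counts CCND2 kept the larger mean share of the 3 genes with TP-472 (48.1% ± 1.59 against 46.4% ± 0.962 for CCND1, SD, n = 4) and was the larger in 3 of the 4 treated libraries. Per length, the share of CCND1 in the sum of the 3 genes was 37.2%, 40.3%, 44.5% and 39.5% with vehicle and 55.7%, 56.5%, 55.8% and 54.4% with TP-472. No vehicle library reached the share of any treated library. The summed level of the D-type cyclins was 64.6 ± 8.37 CPM per kb with vehicle and 97.1 ± 6.97 CPM per kb with TP-472 (SD, n = 4), and most of the difference came from CCND1. The vehicle means were 39.00% for this share and 60.6 CPM per kb for the sum without vehicle replicate 3.

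**Figure D2:**
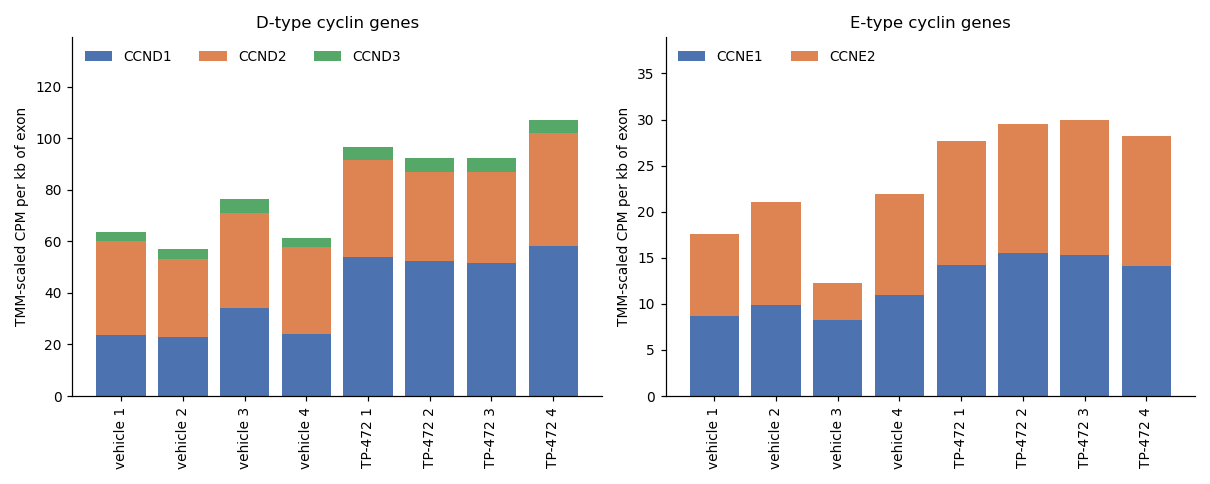
Stacked bars of the level per kilobase of exon (TMM-scaled CPM per kb) of the D-type cyclin genes (left) and E-type cyclin genes (right) in each of the 8 libraries. CCND1 makes up 37.2% to 44.5% of the D-type sum in the vehicle libraries and 54.4% to 56.5% with TP-472, and vehicle replicate 3 has the lowest E-type sum.

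Of the E-type cyclins, which activate CDK2 late in G1, CCNE1 (ENSG00000105173.14, chromosome 19, 29811898 to 29824308, plus strand) was at 22.1, 25.1, 21.0 and 28.0 CPM in the vehicle libraries and at 36.3, 39.5, 39.0 and 35.9 CPM in the TP-472 libraries. Every treated library was higher than every vehicle library, and vehicle replicate 3 was close to the rest of its group. CCNE1 rose 1.57-fold (log2 fold change 0.65 ± 0.119 SE, adjusted p = 0.00388 in edgeR's test) and was called in 19 of 19 single alternatives, with adjusted p-values from 1.39e-04 to 0.0238. Its change was near the fold limit: without vehicle replicate 3 it was 1.504-fold (log2 fold change 0.59, adjusted p = 3.62e-04, edgeR), just above the limit, and DESeq2 and the GC correction put it below when that library was left out.

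CCNE2, cyclin E2 (ENSG00000175305.17, chromosome 8, 94879770 to 94896678, minus strand), stood at 39.0, 49.2, 17.9 and 48.2 CPM with vehicle and at 59.2, 62.0, 64.4 and 62.2 CPM with TP-472. The groups did not overlap (exact two-sided permutation test, p = 0.0286, the smallest this design can give, reached by 3 members), but vehicle replicate 3 was far below the other vehicle libraries. CCNE2 did not pass the test with all libraries (log2 fold change 0.68 ± 0.271 SE, adjusted p = 0.0761 in edgeR, 0.00163 to 0.151 over the alternatives). Without vehicle replicate 3 the difference was smaller and its error too, with a 1.36-fold change (log2 fold change 0.45, adjusted p = 0.00163, edgeR), under the fold limit. Per kilobase of exon, CCNE1 and CCNE2 had levels of 9.43 ± 1.24 and 8.78 ± 3.30 CPM per kb with vehicle and 14.8 ± 0.711 and 14.1 ± 0.484 CPM per kb with TP-472 (SD, n = 4), so that neither led within the spread of the vehicle libraries. The share of CCNE1 in their sum was 53.3% ± 9.16 with vehicle and 51.2% ± 1.00 with TP-472, where vehicle replicate 3 alone had 66.8% and the mean of the other 3 vehicle libraries was 48.7%.

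The kinases showed no called difference. CDK4, a partner of the D-type cyclins (ENSG00000135446.17, chromosome 12, 57747727 to 57756013, minus strand), was at 132, 161, 127 and 164 CPM with vehicle and 152, 167, 166 and 139 CPM with TP-472, in overlapping ranges (log2 fold change 0.10 ± 0.122 SE, adjusted p = 0.554, edgeR, 0.305 to 0.789 over the alternatives), and the log2 fold change was 0.04 without vehicle replicate 3. The other partner, CDK6 (ENSG00000105810.10, chromosome 7, 92604921 to 92836594, minus strand), was at 36.4, 36.8, 22.3 and 35.6 CPM with vehicle and 32.8, 29.6, 28.8 and 40.6 CPM with TP-472. Vehicle replicate 3 had the lowest CDK6 level of all 8 libraries, and without it the log2 fold change of 0.01 ± 0.186 SE (adjusted p = 0.977, edgeR) turned to −0.14 (adjusted p = 0.320, edgeR, 0.320 to 0.999 over the alternatives). CDK4 made up 94.5% ± 0.959 of the sum of both kinase genes per kilobase with vehicle and 94.8% ± 1.26 with TP-472 (SD, n = 4).

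CDK2, the partner of the E-type cyclins (ENSG00000123374.11, chromosome 12, 55966769 to 55972784, plus strand), was measured at 135, 173, 118 and 169 CPM with vehicle and at 117, 127, 122 and 113 CPM with TP-472. Vehicle replicate 3 lay among the treated libraries and the other vehicle libraries above all of them. The log2 fold change was −0.31 ± 0.137 SE with all libraries (adjusted p = 0.104, edgeR, 0.00385 to 0.227 over the alternatives) and −0.41 without vehicle replicate 3 (adjusted p = 0.00385, edgeR), in both cases short of the fold limit. RB1, the substrate that these kinases share (ENSG00000139687.15, chromosome 13, 48303726 to 48599436, plus strand), was at 11.99, 11.1, 6.37 and 9.51 CPM with vehicle and 6.94, 7.82, 7.22 and 9.90 CPM with TP-472. The groups overlapped with and without vehicle replicate 3, the lowest library of all (log2 fold change −0.29 ± 0.213 SE, adjusted p = 0.305 in edgeR, and −0.45, adjusted p = 0.0210, without it, with a range of 0.0210 to 0.573 over the alternatives).

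E2F1, the activator that RB1 holds back (ENSG00000101412.13, chromosome 20, 33675683 to 33686404, minus strand), was at 38.1, 38.0, 53.0 and 40.7 CPM in the vehicle libraries and at 37.8, 39.4, 39.1 and 35.7 CPM in the TP-472 libraries. Except for vehicle replicate 3, all libraries of both groups shared a narrow range. The log2 fold change was −0.16 ± 0.130 SE (adjusted p = 0.349, edgeR) with all libraries and −0.04 (adjusted p = 0.653, edgeR) without that replicate, and removal of the GC trend turned its sign (0.22, adjusted p = 0.180, edgeR), with adjusted p-values from 0.180 to 0.653 over the alternatives. E2F1 was negative under all other scalings and passed the test in no alternative.

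Ordered by level per kilobase of exon, the members with vehicle ran from CDK4 at 46.0 ± 6.10 CPM per kb (SD, n = 4) and CDK2 at 38.2 ± 6.91 CPM per kb over CCND2, CCND1, E2F1, CCNE1, CCNE2 and CCND3 to CDK6 at 2.67 ± 0.573 and RB1 at 1.51 ± 0.383 CPM per kb. Neighbours from CDK4 down to CCND1 differed by less than the sum of their SDs, as did CCNE1 and CCNE2, and CCND3 and CDK6. With TP-472 CCND1 came first, followed within the same spread by CDK4 at 49.2 ± 4.09 CPM per kb, and then by CCND2 and CDK2 at 30.8 ± 1.48 CPM per kb. E2F1 at 15.2 ± 0.682 CPM per kb, CCNE1 and CCNE2 could then not be separated by their spread, and CCND3, CDK6 and RB1 were again the lowest, with RB1 at 1.24 ± 0.207 CPM per kb.

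**Figure D3:**
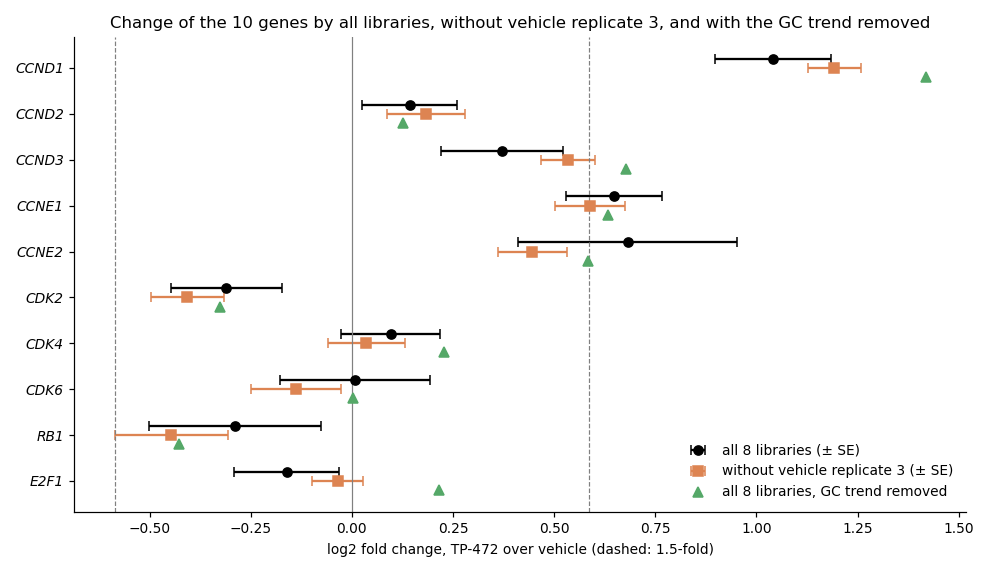
Log2 fold change of TP-472 over vehicle for the 10 genes with all 8 libraries (black, ± SE), without vehicle replicate 3 (orange, ± SE) and with the GC trend of each library removed (green, no error drawn), with the 1.5-fold limit as dashed lines. CCND1 lies beyond the limit in all 3 readings, at 1.04, 1.19 and 1.42, while E2F1 lies at −0.16, −0.04 and 0.22.

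Sequences upstream of the start site are shown for CCNE1, the E-type cyclin that was called, and for E2F1, since both are textbook targets of E2F factors. The RefSeq promoter table (GRCh38.p14, 250 bases before to 50 after each start) held 6 of the 10 members, in 9 windows, and those of CCND1, CCND2, CCNE2 and CDK2 were not analysed here. In E2F1 (chr20:33686386-33686635, minus strand) capitals mark the E2F letters, and the 19 bases next to the start lie in an exon of GENCODE 29, with most of the second match. These letters were searched as TTTCCCGC, TTTCGCGC, TTTGCCGC and TTTGGCGC on both strands. In CCNE1 (chr19:29811741-29811897, plus strand, trimmed before the first exon) capitals mark the GC box GGGCGG on both strands.
E2F1: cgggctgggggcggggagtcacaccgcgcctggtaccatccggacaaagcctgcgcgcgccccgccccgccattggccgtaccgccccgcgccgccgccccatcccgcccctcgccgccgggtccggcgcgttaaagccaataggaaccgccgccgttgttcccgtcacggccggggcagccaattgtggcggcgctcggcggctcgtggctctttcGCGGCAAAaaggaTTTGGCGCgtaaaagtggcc
CCNE1: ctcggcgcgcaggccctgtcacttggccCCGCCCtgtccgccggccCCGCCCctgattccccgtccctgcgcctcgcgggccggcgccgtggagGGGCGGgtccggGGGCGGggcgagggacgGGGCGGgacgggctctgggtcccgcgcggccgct

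The E2F letters were found in 2 places in the window of E2F1, beginning 33 and 20 bases before the RefSeq start, and in none of the other windows of the members, where 3.31% of the 35116 promoters in the table held them. By the positions of GENCODE 29, the windows of RB1, CDK4 and CCND3 lie inside their genes, so that they do not describe the genes' first starts. The window of CDK6 without a GC box lies inside its gene too. The GC box was found in 7 places in the full window of CCNE1, of which 5 lie in the stretch shown, in 6 places in that of E2F1, in 5 and 4 places in 2 windows of CCND3 and in 3 places each in the window of CDK4 and in 1 of the 2 windows of CDK6, while 45.0% of all promoters held it. The E-box letters CACGTG, which MYC and related factors bind, were present in 3 places in the window of CDK4 and in 1 place in 1 window of CDK6, against 7.26% of all promoters. These matches describe letters and not bound sites.

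In vehicle replicate 3 the members followed its GC trend in part. The AT-rich CCNE2 (39.9% GC) and RB1 (42.3% GC) were lower there than in the other vehicle libraries, by log2 differences of −1.33 and −0.76. The median genes of the bins around 40.7% and 43.6% GC were at −0.70 and −0.56. The GC-rich CCND1 (61.9% GC), CCND3 (59.5% GC) and E2F1 (62.5% GC) were higher, by 0.53, 0.56 and 0.45. These values lay below the medians of the bins around 58.5% and 61.5% GC, at 0.70 and 0.94. CDK6, CDK2, CCNE1 and CDK4, between 51.4% and 56.4% GC, were lower, by −0.70, −0.42, −0.25 and −0.25, although the median genes of the bins around 52.4% and 55.5% GC were higher in this library, by 0.19 and 0.45. CCND2 (51.1% GC) was higher by 0.155. Across the 10 members the difference and the GC content had a Spearman rho of 0.745, given as a description since the genes share the same libraries.

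**Figure D4:**
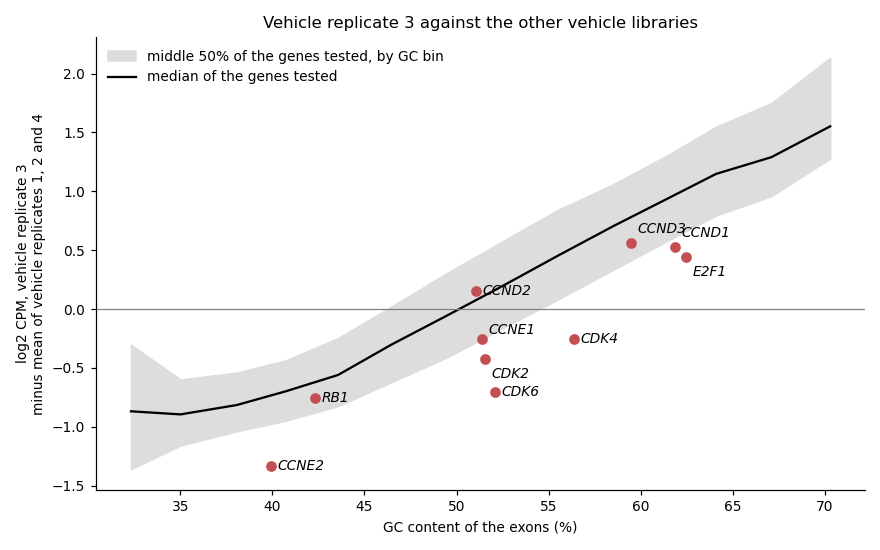
Difference in log2 CPM between vehicle replicate 3 and the mean of vehicle replicates 1, 2 and 4 (vertical axis) against GC content in percent (horizontal axis). GC content is the mean over a gene's annotated transcripts, which the axis names as exons. The 10 genes are red points. The median and middle 50% of the genes tested, in bins of GC content with 20 or more genes, are a line and a grey band. CCNE2 lies lowest at −1.33 and CCND3 highest at 0.56.

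Around the members, 8 lists of neighbouring genes were read from the same fit, and each is described by its counts beside the 12% higher and 14.9% lower of all genes tested. Among these lists 21 genes were called, where 3789 of all 14073 genes tested were called. Of the 21, 15 were called in every single alternative that tested them, a share that was not computed for all genes.

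Of the 7 CDK inhibitors, 1 was called higher and 3 lower (median log2 fold change −0.18), with the same counts without vehicle replicate 3. CDKN1A, which encodes the CIP/KIP inhibitor p21, was at 3.43, 4.48, 4.24 and 3.76 CPM in the vehicle libraries and at 19.8, 23.0, 23.0 and 20.7 CPM in the TP-472 libraries. It rose from a low level by a log2 fold change of 2.44 ± 0.135 SE (adjusted p = 2.06e-05, edgeR, at most 0.00112 over the alternatives), and by 2.48 without vehicle replicate 3. CDKN1B, which encodes p27, another CIP/KIP inhibitor, was at 83.6, 108, 73.0 and 102 CPM with vehicle and at 33.1, 31.1, 35.7 and 27.5 CPM with TP-472, a gap that no library bridged. It fell by 1.53 on the log2 scale (± 0.151 SE, adjusted p = 2.36e-04, edgeR, at most 0.00466 over the alternatives), with a log2 fold change of −1.62 without vehicle replicate 3.

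The INK4 genes CDKN2C and CDKN2D, whose products bind CDK4 and CDK6, were called lower too, at log2 fold changes of −1.08 ± 0.114 SE and −0.67 ± 0.193 SE (adjusted p = 2.94e-04 and 0.0253, edgeR), and of −1.08 and −0.59 without vehicle replicate 3. The call of CDKN2D was lost without TP-472 replicate 1 or TP-472 replicate 4 and with the GC trend removed, with adjusted p-values from 0.00857 to 0.164. CDKN2A, CDKN2B and CDKN1C were not called, at −0.18, −0.06 and −0.15, and CDKN2A was at 193 CPM in vehicle replicate 3 against 77.7 to 93.7 CPM in the other vehicle libraries.

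Among the 11 other RB family, E2F and DP genes, 1 was called higher and 3 lower (median −0.23), and without vehicle replicate 3 the counts were 0 and 3. RBL2, which encodes the RB-related pocket protein p130, was at 65.2, 64.8, 51.1 and 60.0 CPM with vehicle and at 28.4, 27.9, 27.8 and 31.4 CPM with TP-472. It fell by 1.06 on the log2 scale (± 0.112 SE, adjusted p = 2.99e-04, edgeR), with a log2 fold change of −1.13 without vehicle replicate 3. The repressor E2F7 fell by 0.89 (± 0.112 SE, adjusted p = 7.05e-04, edgeR) and TFDP2, a DP partner of the E2F factors, by 0.87 (± 0.098 SE, adjusted p = 4.27e-04, edgeR), each with groups that did not overlap and with adjusted p-values under 0.05 in all alternatives. Their log2 fold changes without vehicle replicate 3 were −0.91 and −0.81.

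The repressor E2F6 was called higher with all libraries (log2 fold change 0.69 ± 0.195 SE, adjusted p = 0.0239, edgeR, 2.50e-04 to 0.0651 over the alternatives). This call was lost without vehicle replicate 3 (log2 fold change 0.52), and also without vehicle replicate 1 or without any of the TP-472 libraries. The activator E2F3 and the repressor E2F5 had adjusted p-values under 0.05 but fold changes under the limit (0.49 and 0.53), and RBL1, E2F2, E2F4, E2F8 and TFDP1 were not called, at −0.23, −0.38, 0.30, −0.35 and 0.07.

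The MuvB core joins pocket proteins to repress cell cycle genes in quiescent cells and joins B-MYB and FOXM1 to activate them later in the cycle. Of the 7 genes for the core and these partners, 0 were called higher and 1 lower by edgeR (median −0.40), where FOXM1 was at 120, 82.8, 207 and 82.8 CPM with vehicle and at 73.0, 61.7, 62.0 and 71.1 CPM with TP-472. The log2 fold change of FOXM1 was −0.88 ± 0.282 SE (adjusted p = 0.0379, edgeR, 0.00921 to 0.0966 over the alternatives) and −0.51 without vehicle replicate 3, its highest library, so that the call was then lost, as it was without vehicle replicate 1 or any TP-472 library, with limma-voom and with the replicate block. MYBL2, which encodes B-MYB, was at 260 CPM in vehicle replicate 3 and between 91.3 and 110 CPM in all others. LIN9, LIN37, LIN52, LIN54 and RBBP4 were not called, at 0.20, −0.40, −0.50, −0.02 and −0.36.

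Of the 7 activators of CDKs, 1 was called higher and 1 lower (median 0.34), and 1 and 2 without vehicle replicate 3. CDC25A, the phosphatase that removes the inhibitory phosphate of CDK2 at the G1/S border, was at 45.8, 51.8, 40.1 and 53.9 CPM with vehicle and at 98.9, 97.7, 96.4 and 95.0 CPM with TP-472. It rose by a log2 fold change of 1.02 ± 0.113 SE (adjusted p = 3.86e-04, edgeR, at most 0.00630 over the alternatives), and of 0.94 without vehicle replicate 3. CDC25B, which acts on CDK1 at the entry into mitosis, went the other way, at −1.09 ± 0.231 SE (adjusted p = 0.00740, edgeR), and without vehicle replicate 3, its highest library, at −0.82. CDC25C was not called with all libraries (−0.54) and was called lower without vehicle replicate 3 (−0.67, adjusted p = 3.89e-05, edgeR, with 0.0673 as the highest value over the alternatives). CDK7, CCNH and MNAT1, which form the CDK-activating kinase, and the chaperone gene CDC37 were not called, at 0.48, 0.44, −0.03 and 0.34.

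None of the 12 genes for the turnover of D- and E-type cyclins or p27 was called in edgeR with or without vehicle replicate 3 (median 0.17). By the adjusted p-value alone 1 was higher (17.2% of all genes) and 0 lower (19.1%), against 4 and 1 without vehicle replicate 3 (28.6% and 28.4%). The gene that was higher with all libraries, FBXW7, the receptor of the ubiquitin ligase for cyclin E, was at 45.1 ± 7.57 CPM with vehicle and 61.7 ± 1.73 CPM with TP-472 (log2 fold change 0.45, adjusted p = 0.0282, edgeR). SKP2, the receptor for p27, was level between the groups (−0.04), with CKS1B at 0.08, SKP1 at 0.38, CUL1 at 0.22 and RBX1 at 0.33. AMBRA1, FBXO31 and FBXO4, which have been described as receptors for D-type cyclins, were at −0.13, 0.13 and 0.30, and CUL3, USP28 and GSK3B at 0.30, −0.24 and 0.03.

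Among 43 targets of E2F at the G1/S border, 2 were called higher and 0 lower by edgeR (median 0.16). By the adjusted p-value alone 8 were higher (17.2% of all genes) and 1 lower (19.1%), and 15 and 6 without vehicle replicate 3 (28.6% and 28.4%). The groups of all libraries did not overlap in 15 that were higher (23.8% of all genes) and 3 that were lower (21.6%). CDC6, which loads the replicative helicase, was at 44.6, 52.3, 40.0 and 54.5 CPM with vehicle and at 83.7, 85.8, 87.5 and 82.4 CPM with TP-472. It rose by a log2 fold change of 0.83 ± 0.118 SE (adjusted p = 0.00123, edgeR, at most 0.0115 over the alternatives), and of 0.75 without vehicle replicate 3. TIPIN, a replication fork protein, was called at 0.75 ± 0.230 SE (adjusted p = 0.0324, edgeR) and was no longer called without vehicle replicate 3 (0.55), without vehicle replicate 1 or without any TP-472 library. When vehicle replicate 3 was left out the list had 1 gene higher, CDC6, and 1 lower, BRCA1 (−0.59), named after its value was seen. With all libraries BRCA1 was at −0.57, under the fold limit.

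Of 30 genes of G2 and M phase, 0 were called higher and 1 lower by edgeR (median −0.12), with 0 and 3 by the adjusted p-value alone (17.2% and 19.1% of all genes) and 3 and 13 by the same limit without vehicle replicate 3 (28.6% and 28.4%). CCNF, cyclin F, was at 132, 104, 224 and 111 CPM with vehicle and at 92.6, 84.7, 78.5 and 85.6 CPM with TP-472. Its log2 fold change of −0.74 ± 0.232 SE (adjusted p = 0.0340, edgeR, 0.00253 to 0.0918 over the alternatives) was −0.44 without vehicle replicate 3, and the call was lost without it, without vehicle replicate 1, without any TP-472 library, with the GC trend removed and with the replicate block. NUSAP1 and CDK1, named after their values were seen, were the 2 genes called lower without vehicle replicate 3, at −0.64 and −0.59. With all libraries NUSAP1 was at −0.57, under the fold limit, and CDK1 at −0.36 (adjusted p = 0.314, edgeR). CDK1 was at 103 CPM in vehicle replicate 3 against 221 to 283 CPM in the other vehicle libraries.

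The 24 tested genes of other cyclins and CDKs, most of which act in transcription, included 2 called higher and 5 lower (median −0.09), and 1 and 6 without vehicle replicate 3. CDK8, a kinase of the Mediator complex, rose by a log2 fold change of 0.76 ± 0.145 SE (adjusted p = 0.00466, edgeR), while its paralog CDK19 fell by 0.81 (± 0.156 SE, adjusted p = 0.00467, edgeR). These values were 0.64 and −0.95 without vehicle replicate 3. Their partner CCNC was called at 0.79 ± 0.273 SE (adjusted p = 0.0499, edgeR, 7.37e-04 to 0.106 over the alternatives) and lost the call without vehicle replicate 3 (0.55), without vehicle replicate 1, without any TP-472 library, with RLE or upper-quartile scaling, with robust dispersion and with the replicate block. CDK18, CCNG2 and CCNL2 fell by 2.48, 1.00 and 1.00 on the log2 scale (adjusted p = 0.00567, 0.00180 and 7.54e-04, edgeR), and CDK10, at −0.94, was the other gene called lower. CDK18 was at 21.5 CPM in vehicle replicate 3 against 4.91 to 8.54 CPM in the other vehicle libraries, and without that library it fell by 1.80, while CCNG2, CCNL2 and CDK10 were at −1.13, −0.87 and −0.63.

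**Figure D5:**
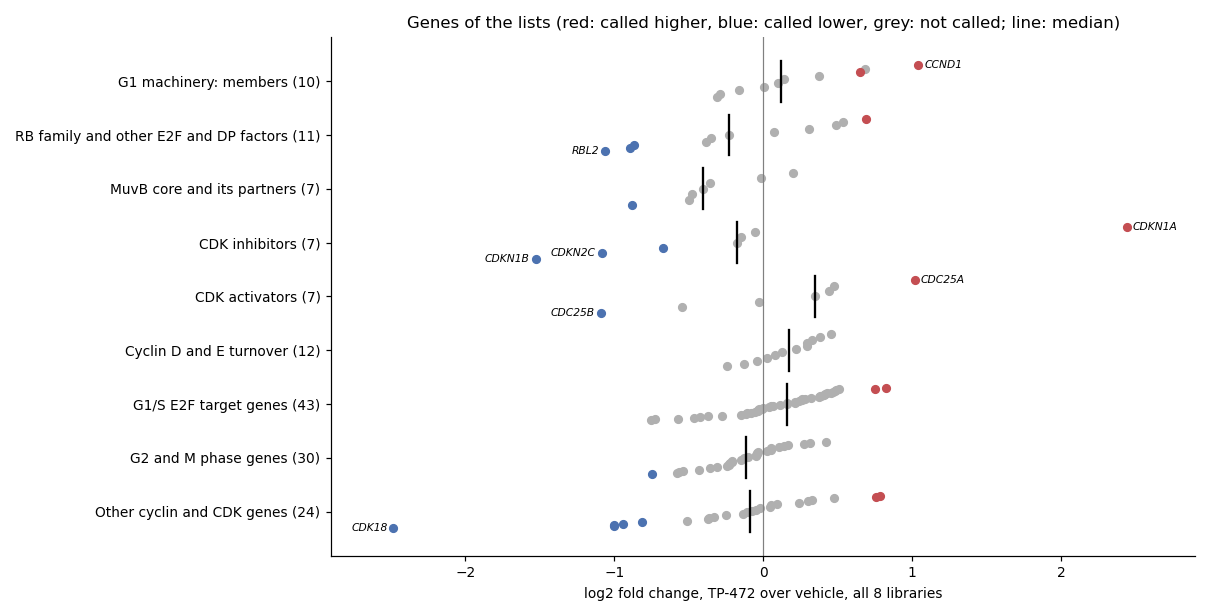
Log2 fold change of TP-472 over vehicle with all 8 libraries for each gene of the 10 members and of the 8 lists (number tested in parentheses), in red where called higher, blue where called lower and grey where not called, with the median of each list as a black line. Genes beyond 1 on the log2 scale carry their names, among them CCND1, CDKN1A and CDC25A on the right and RBL2, CDKN1B, CDKN2C, CDC25B and CDK18 on the left.

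The genes whose log2 CPM was most like that of CCND1 over the 8 libraries were GPR3, HK2 and ANGPTL4, with Pearson r of 0.997, 0.996 and 0.995. For CCNE1, MRPL21 and LANCL2 each had r of 0.996. These values describe 8 libraries in 2 groups, whose difference contributes to r, and 722 and 1489 of the genes tested had r over 0.9 with CCND1 and CCNE1.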

How the data were processed

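RNA of vehicle- and TP-472-treated SK-UT-1 cells was measured in 8 libraries. The authors prepared strand-specific libraries, mapped reads to GRCh38, estimated transcripts with Salmon 1.4.0 and summed them by gene with GENCODE release 34. The deposited values are estimated counts, not scaled and not filtered, of which 13.8% to 23.2% per library were not whole.

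Counts were rounded. The 14073 of 60282 genes that exceeded 1 CPM in 4 or more of the 8 libraries were scaled by TMM and tested with the quasi-likelihood test of edgeR 4.0.16 (R 4.3.3), with Benjamini-Hochberg adjustment over all genes and the study's limits of 0.05 and 1.5-fold. The study names no differential expression software, and its general statistics name Student's and Mann-Whitney tests. Log2 fold changes are TP-472 over vehicle. The edgeR test gives no SE, so the SE printed is the absolute log2 fold change over the square root of F. Positions, exon lengths (union of exons) and GC content (mean over a gene's transcripts) came from GENCODE release 29 on GRCh38, joined by identifier without version. Counting error was not separated from replicate spread. The methods state biological replicates for the study in general, but the labels do not say whether these came from separate cultures, so p-values measure the spread between these samples, which may be technical. No library was a copy of another (lowest mean chi-square between replicates 12.8, where copies would be near 1). Calculations were tested on simulated data.

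Members and lists were chosen with earlier results of these data known. All 10 members, all genes of lists up to 12 genes, up to 4 called genes per direction of longer lists whose groups did not overlap, and the 3 genes most like each called member were named, except for a few that enter the counts but are not reported here. Alternatives were DESeq2 1.42.0 without the low-count filter, limma-voom (limma 3.58.1), and RLE, upper-quartile and total-count scaling. Others were no filter and a filter of 5 CPM, robust dispersion, a replicate block, unrounded counts and each library left out. A GC correction (lowess offset) and fits that joined other settings with the omission of vehicle replicate 3 were added after seeing the data.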

Additional observations from a re-analysis of the deposited data

Results flagged for a closer look

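In each of the 20 groups of 4 libraries (10 genes, 2 groups), the highest and lowest library were compared with the rest by Dixon's ratio of gap to range, which chance passes in about 1 in 20 groups. It was passed in 3 groups, each time by vehicle replicate 3. CCND1 was at 164 CPM in this library, the highest of its group (ratio 0.886). CCND3 was at 31.2 CPM, also the highest (ratio 0.929). CDK6 was at 22.3 CPM, the lowest (ratio 0.918).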

How the results depend on the processing

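CCND1 and CCNE1 were called in all 19 single alternatives, and no member was called lower in any. Each of these changed a single choice of the fit, except that DESeq2 changed test, scaling and filter together. Leaving out each library in turn kept 2 members called and gave 2690 to 4223 genes called in all, 1303 to 1824 higher and 1387 to 2399 lower (fewest lower without TP-472 replicate 3). The log2 fold change of CDK6 then ran from −0.14 to 0.0679. DESeq2, run without the low-count filter, called 5546 genes, 2666 higher and 2880 lower. Without that filter edgeR called 5090 genes, 2393 higher and 2697 lower, and with it 3789. With the filter, an adjusted p-value under 0.01 gave 2144 genes, 1061 higher and 1083 lower. Removal of the GC trend called CCND3 (0.68, and 0.62 without vehicle replicate 3) and turned E2F1 to 0.22 (0.0905 without vehicle replicate 3). Without vehicle replicate 3, CCNE1 was under the fold limit in DESeq2 (0.57, which left 1 member called) and with the GC trend removed (0.55). The estimate for CDK6, near 0, turned negative with DESeq2 (−3.67e-04), upper-quartile (−0.0126) and total-count scaling (−0.00728), without a filter (−0.0102), with a filter of 5 CPM (−0.00397), without vehicle replicate 3 (−0.14) and TP-472 replicate 4 (−0.11), and, each without vehicle replicate 3, with DESeq2 (−0.15), limma-voom (−0.15), RLE (−0.14), total-count scaling (−0.14) and the GC trend removed (−0.17). The causes were not tested. Replicate numbers did not pair the samples (correlations of same-numbered deviations −0.06, 0.12, −0.17 and −0.18). Between differently numbered libraries these correlations ran from −0.30 to 0.40, with the highest between vehicle replicate 1 and TP-472 replicate 4. What such libraries share was not tested. With the replicate block 3055 genes were called, with CCND1 at 1.06 and CCNE1 at 0.66. What depth limits was not tested.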
